A study of Mus musculus with 4 samples.

Results

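The 10 genes described here code for components of the mucus that goblet cells secrete in the colon and for transcription factors that drive the goblet cell fate. They are Muc2, Fcgbp, Clca1, Tff3, Agr2, Spink4, Klk1, Sval1, Spdef and Atoh1. They were chosen as a list by name with earlier results of these data known. All 10 were found among the 29897 genes listed in any library. The data were droplet single-cell RNA counts of mouse colon. The 2 CCl4 libraries came from specific-pathogen-free (SPF) mice that had received CCl4 (carbon tetrachloride, which damages the liver) for 6 weeks from 6 weeks of age. The 2 control libraries are labelled as control colon, with no age, duration or vehicle recorded. The series is titled as a cell atlas of the colon in liver cirrhosis, and the tissue of the treated mice is called mild-colon. Strain, sex and the number of animals in a library are not given in the labels, and nothing in the files measures the state of the liver.

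Goblet cells release mucus that swells into a gel over the epithelium and keeps bacteria away from it. The gel is a net of MUC2, a very large and heavily glycosylated mucin that is folded in the endoplasmic reticulum, packed in granules and released together with smaller proteins. The fate of these cells is set in the crypt, where ATOH1 commits a progenitor to the secretory lineage against Notch signalling and SPDEF then drives goblet cell maturation. In droplet data, transcripts of lysed cells also float free and are caught with other cells, so that the abundant messages of goblet cells appear at low levels in cells that do not make mucus.

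Goblet cells were taken from a clustering in which the 10 genes were left out of the variable genes and of the markers, so that they did not choose the cells in which they were compared. The class held 1919 of 36521 cells and is named goblet-like, shortened to goblet, from 14 of 18 other goblet markers that were raised in it. It held 772 and 680 cells in the CCl4 libraries and 233 and 234 cells in the control libraries. This was 7.44% and 6.95% of the cells of the CCl4 libraries, against 2.88% and 2.84% of those of the control libraries. The deposited libraries held 92383719 and 74643979 counts for CCl4 and 55834301 and 58667918 counts for control. The median goblet cell held 13893.5 and 11808 counts in the CCl4 libraries and 13031 and 13816.5 in the control libraries, and its mitochondrial share was 7.72% and 7.01% against 5.76% and 6.01%. No cell shared its profile with a cell of another library (0 cells).

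The promoters of the 3 genes whose message changed relative to all goblet counts, Muc2, Sval1 and Atoh1, are shown so that their sequence can be read beside their values. Each line gives 250 bases before and 50 bases after the start of the gene, 5′ to 3′, from RefSeq (GRCm38.p6). Capitals mark the E-box forms CAGCTG and CAGATG, searched on both strands, where CAGATG reads CATCTG on the other strand. E-boxes are bound by transcription factors of the family to which ATOH1 belongs.
Muc2, chr7:141690090-141690389, plus strand: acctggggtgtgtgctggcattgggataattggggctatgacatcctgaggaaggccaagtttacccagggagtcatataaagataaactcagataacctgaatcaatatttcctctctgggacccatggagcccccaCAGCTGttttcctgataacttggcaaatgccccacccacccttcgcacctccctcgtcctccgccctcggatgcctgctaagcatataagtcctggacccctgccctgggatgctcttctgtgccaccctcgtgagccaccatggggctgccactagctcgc
Sval1, chr6:41951378-41951677, plus strand: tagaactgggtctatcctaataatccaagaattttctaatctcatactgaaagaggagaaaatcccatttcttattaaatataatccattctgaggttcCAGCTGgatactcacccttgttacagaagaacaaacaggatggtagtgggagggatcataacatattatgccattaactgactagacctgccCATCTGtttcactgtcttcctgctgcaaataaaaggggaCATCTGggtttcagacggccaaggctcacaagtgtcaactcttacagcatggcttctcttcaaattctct
Atoh1, chr6:64728875-64729174, plus strand: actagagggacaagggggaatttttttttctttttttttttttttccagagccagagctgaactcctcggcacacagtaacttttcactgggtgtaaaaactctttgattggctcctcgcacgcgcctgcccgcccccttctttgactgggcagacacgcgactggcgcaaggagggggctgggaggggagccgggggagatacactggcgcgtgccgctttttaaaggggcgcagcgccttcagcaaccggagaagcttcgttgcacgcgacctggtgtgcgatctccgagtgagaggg
CAGCTG stood once in the Muc2 promoter and once in that of Sval1, and CAGATG stood in the Sval1 promoter at 2 places. The Atoh1 window held neither form. Of the 7 genes of the list with an entry in the RefSeq table, 3 held CAGCTG (Muc2, Fcgbp and Sval1) and 2 held CAGATG (Klk1 and Sval1). Over all 27025 promoters of the table, 16.1% held CAGCTG and 17.2% held CAGATG, and the matches are a description only.

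Within goblet cells of CCl4 mice, Sval1 and Atoh1 rose, Muc2 fell, and the other 7 genes did not pass the test. Levels are given in CPM, the counts of a gene per 1000000 counts, both summed over the goblet cells of a library. Each change is given as the log2 of the CCl4 level over the control level, with a standard error (SE), from edgeR's quasi-likelihood test on the raw sums. A gene was called at a Benjamini-Hochberg adjusted p under 0.05 over all genes tested. Of the 12205 genes tested in goblet cells, 1.25% were called, 0.901% higher and 0.352% lower in CCl4. Of the 10 genes of the list, 2 were called higher and 1 lower, and their median log2 ratio was 0.02, beside 0.0016 over all genes tested. Separate animals are not stated for the libraries, so each p-value reflects library spread alone, and that spread may be technical. An exact permutation test of 2 libraries against 2 has 2 in 6 as its smallest two-sided p, and all calls come from a model that shares its estimate of spread across genes.

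**Figure D1:**
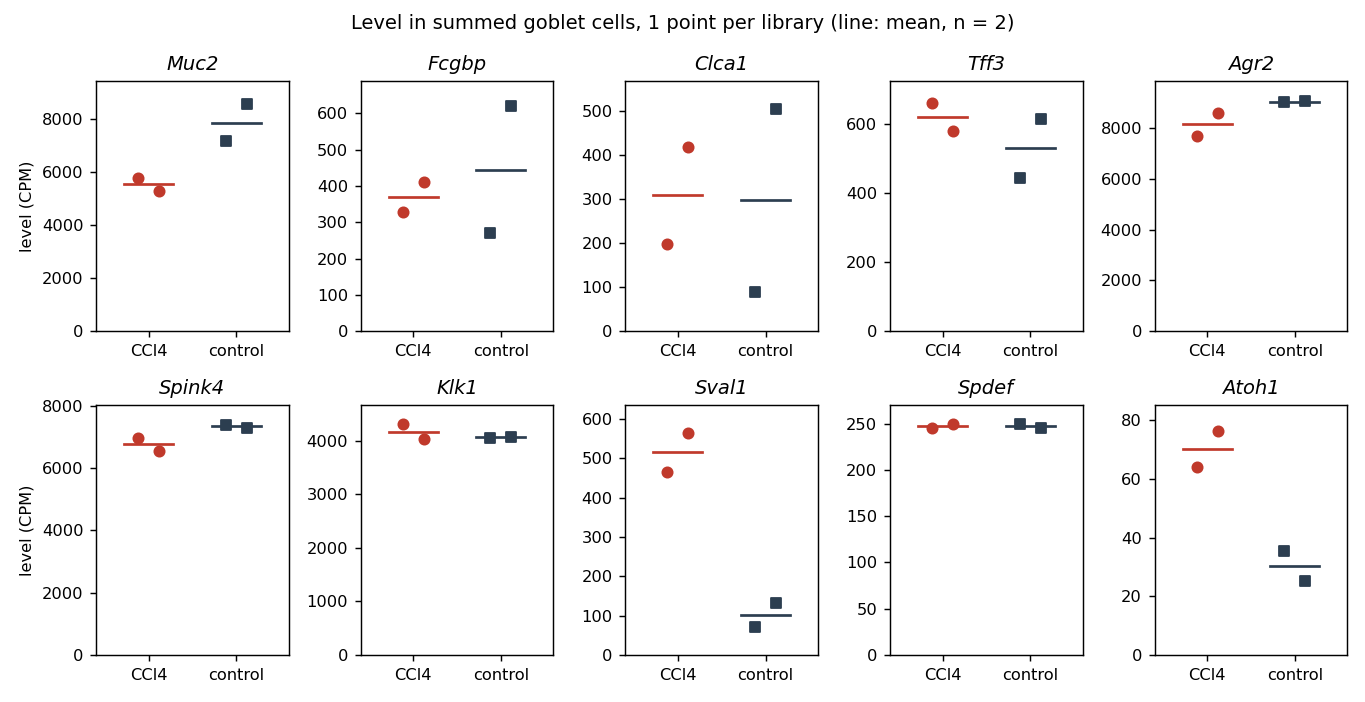
Level of each gene in CPM, summed over goblet cells, for the 2 CCl4 libraries (red circles) and the 2 control libraries (dark squares), with a line at the mean of each group and each axis starting at 0. Both CCl4 points of Sval1 and Atoh1 lie above both control points, those of Muc2 lie below, and the control points of Clca1 lie farther apart than its group means.

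Muc2, on chromosome 7 at 141690340 to 141754693 (GRCm38, plus strand), encodes the gel-forming mucin that is the main structural protein of colon mucus. Its level was 5775 and 5285 CPM in the CCl4 libraries, against 7159 and 8559 CPM in the control libraries. The groups did not overlap. The mean was 5530 ± 347 CPM for CCl4 and 7859 ± 990.1 CPM for control (SD, n = 2 each), a log2 ratio of -0.51 (SE 0.0734, edgeR adjusted p = 0.00185). Counted per cell, with the number of goblet cells as library size in place of the total count, a goblet cell held 86.2 and 70.3 counts of Muc2 in the CCl4 libraries and 102 and 130.4 in the control libraries (log2 ratio -0.57, SE 0.149, edgeR adjusted p = 0.0173). In this per-cell fit, 1.06% of all genes were called and 3 of the 10, which were Muc2, Sval1 and Atoh1. The per-cell call was lost when any single library was left out (-0.74 to -0.38), whereas the call relative to all counts held in each of those fits (-0.63 to -0.38).

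Fcgbp, Clca1 and Tff3 belong with Muc2 in the mucus layer. FCGBP is a protein bound to the mucin net, CLCA1 is a secreted metalloprotease that can process it, and TFF3 is a small trefoil peptide that aids repair of the epithelium. Fcgbp had 329 and 412 CPM in the CCl4 libraries and 269 and 621 CPM in the control libraries. Clca1 had 198 and 418 CPM in the CCl4 libraries and 88.9 and 504 CPM in the control libraries. Tff3 had 660.2 and 581 CPM in the CCl4 libraries and 444 and 615 CPM in the control libraries. In all 3 genes the groups overlapped, and for Fcgbp and Clca1 both CCl4 libraries lay between the 2 control libraries. None of the 3 was called (log2 ratios of -0.27, 0.05 and 0.23, SE 0.235, 0.464 and 0.118, edgeR adjusted p = 0.674, 0.978 and 0.418).

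The value of Clca1 turned on single libraries. Its log2 ratio was 0.50 without CCl4 library 1, -0.57 without CCl4 library 2, -0.72 with control library 1 left out and 1.78 with control library 2 left out, and each of these 4 fits called it, in opposite directions. In such fits the lone library of a group is assumed to vary like the 2 libraries of the other. Fcgbp gave -0.75 without control library 1 and 0.45 without control library 2, both called. The plot with each library left out shows these swings beside the narrow ranges of Agr2, Spink4, Klk1 and Spdef. About 6.42% of the 50-base stretches of Fcgbp transcripts also occur in other genes, mostly 9530053A07Rik, so part of its counts may be split between them.

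**Figure D2:**
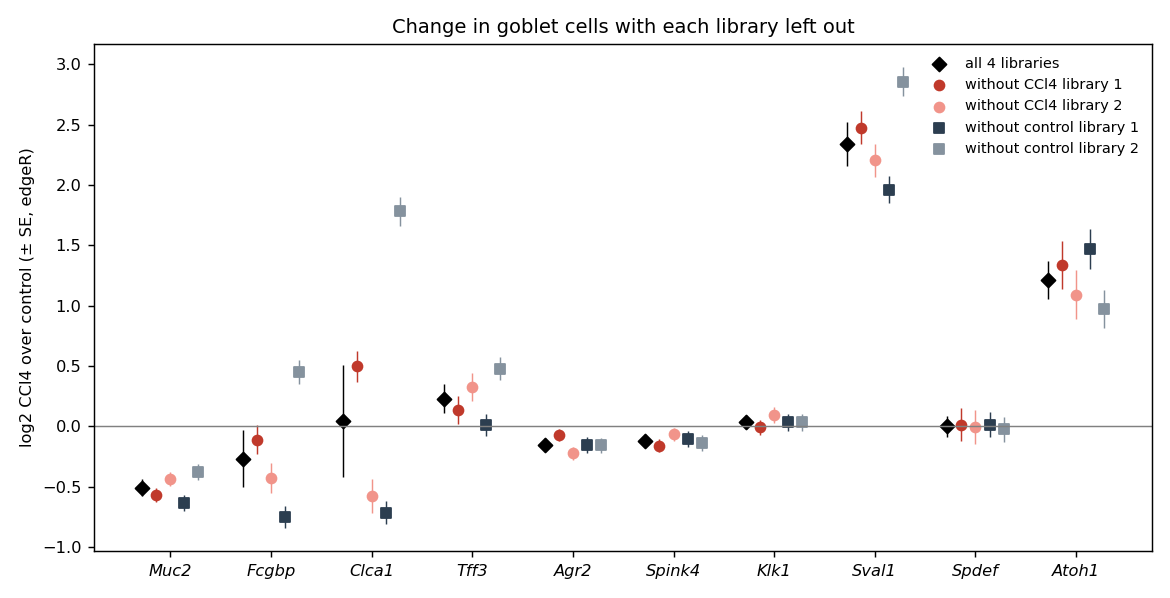
Log2 ratio of CCl4 over control in goblet cells (± SE, edgeR) with all 4 libraries and with each library left out in turn. The values of Clca1 run between -0.72 and 1.78 and those of Fcgbp between -0.75 and 0.45, while Sval1 stays between 1.96 and 2.86, Atoh1 between 0.97 and 1.47 and Muc2 between -0.63 and -0.38.

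Agr2 encodes a protein disulfide isomerase of the endoplasmic reticulum that MUC2 needs for its folding. Its level was 7689 and 8593 CPM in the CCl4 libraries and 9029.9 and 9049.6 CPM in the control libraries. Both CCl4 libraries lay below both control libraries, but the gene was not called (log2 ratio -0.15, SE 0.0571, edgeR adjusted p = 0.241), and it was called in the fit without CCl4 library 2 (-0.22).

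Spink4, Klk1 and Sval1 encode small secreted proteins. SPINK4 is a Kazal-type protease inhibitor of goblet granules and KLK1 is tissue kallikrein, a serine protease. SVAL1 belongs to the seminal vesicle antigen family. Spink4 had 6971 and 6557 CPM in the CCl4 libraries and 7402 and 7283 CPM in the control libraries, and the groups did not overlap. It was not called (-0.12, SE 0.0533, edgeR adjusted p = 0.336). Klk1 had 4311 and 4026 CPM in the CCl4 libraries and 4053 and 4069.5 CPM in the control libraries, and it was not called (0.04, SE 0.0582, edgeR adjusted p = 0.844). Klk1 shares 24.0% of its 50-base stretches with Klk1b genes and overlaps Gm10109 on the other strand, so its counts are uncertain.

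Sval1, on chromosome 6 at 41951630 to 41956098 (GRCm38, plus strand), showed the largest change of the list. Its level was 466 and 564 CPM in the CCl4 libraries, against 70.8 and 132 CPM in the control libraries. The mean was 515 ± 69.4 CPM for CCl4 and 101 ± 43.4 CPM for control (SD, n = 2 each), a log2 ratio of 2.34 (SE 0.186, edgeR adjusted p = 2.53e-05). It had the smallest p of the 12205 genes tested. A goblet cell held 6.95 and 7.50 counts of Sval1 in the CCl4 libraries and 1.01 and 2.01 in the control libraries (log2 ratio per cell 2.26, edgeR adjusted p = 1.01e-35). The per-cell call was lost without CCl4 library 1 (2.31).

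Of the 2 transcription factors, Atoh1 was called and Spdef was not. Atoh1, a gene of a single exon on chromosome 6 at 64729125 to 64731245 (GRCm38, plus strand), had 64.1 and 76.4 CPM in the CCl4 libraries, against 35.5 and 25.2 CPM in the control libraries. The groups did not overlap, and the log2 ratio was 1.21 (SE 0.157, edgeR adjusted p = 0.000785). These levels rest on 739 and 691 counts in the CCl4 libraries and 118 and 90 counts in the control libraries, and DESeq2 gave Atoh1 no adjusted p. Per cell, Atoh1 rose as well (1.15, SE 0.190, edgeR adjusted p = 7.27e-07), a call lost without CCl4 library 1 (1.19) or CCl4 library 2 (1.10). Spdef, on chromosome 17 at 27714352 to 27728955 (minus strand), had 245 and 249 CPM in the CCl4 libraries and 250.001 and 245 CPM in the control libraries. These 4 values lay close together, and Spdef was not called (SE 0.0859, edgeR adjusted p = 0.998). Whether their changes differ was not tested.

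Together the 10 genes made up 2.61% and 2.67% of all goblet counts in the CCl4 libraries, against 2.92% and 3.15% in the control libraries. The groups did not overlap. The median over single cells gave 2.58% and 2.69% for CCl4 and 2.94% and 3.10% for control. Markers of other cell types were also counted in the goblet sums. The 12 colonocyte markers summed to 1062 and 1038 CPM in the CCl4 libraries and 1041 and 1145 CPM in the control libraries. The 7 erythroid markers summed to 267 and 71.5 CPM in the CCl4 libraries and 4.88 and 8.53 CPM in the control libraries, and the 9 fibroblast markers to 76.7 and 124 CPM against 64.3 and 48.9 CPM. Both CCl4 libraries lay above both control libraries in 5 of 7 erythroid, 6 of 9 fibroblast and 5 of 12 colonocyte markers, and none of these markers was at 0 in all libraries. Among the other sets, 0 of 8 shared epithelial markers lay above in this way and 5 lay below. Of the 9 T cell markers 1 lay above and 4 below, and of the 18 goblet markers 5 lay above and 5 below. The share of all genes that lay so was not counted. The part of these markers in the results was not tested.

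The genes differed in how their counts were spread over goblet cells. At least 1 count of Muc2, Agr2, Spink4 or Klk1 was found in 95.7% to 97.9% of goblet cells of the CCl4 libraries and in 96.6% to 98.7% of those of the control libraries. Clca1 was found in 13.1% and 15.4% of goblet cells of the CCl4 libraries and in 15.9% and 12.4% of those of the control libraries. The 5% of goblet cells with the most Clca1 held 91.7% and 94.2% of its counts in the CCl4 libraries and 77.3% and 93.0% in the control libraries. For Muc2 the same share was 19.1% and 18.3% in the CCl4 libraries and 19.6% and 18.5% in the control libraries. Clca1 levels thus rest on few cells, with up to 714 counts in 1 cell of CCl4 library 2 and 332 in 1 cell of control library 2.

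Sval1 and Atoh1 were found in a larger share of goblet cells in the CCl4 libraries, at the median goblet depths given above. Sval1 was found in 43.8% and 44.3% of goblet cells of the CCl4 libraries, against 20.2% and 20.5% of those of the control libraries. In fibroblasts, which do not make mucus, Sval1 was found in 1.46% and 1.92% of cells of the CCl4 libraries and 0.177% and 0.132% of those of the control libraries, at median depths of 4375 and 3913 counts for CCl4 and 3714 and 4029.5 counts for control. After each cell was thinned to 1000 counts, Sval1 was found in 20.98% and 22.4% of goblet cells for CCl4 and in 5.15% and 5.13% for control, against 0.705% and 0.520% of fibroblasts for CCl4 and 0.0883% and 0.0440% for control. The shares in goblet cells thus lay above those in fibroblasts in all 4 libraries. Atoh1 was found in 34.3% and 36.2% of goblet cells for CCl4 and in 21.03% and 18.8% for control. In fibroblasts it was found in 0.188% and 0.416% of cells for CCl4 and 0.0883% and 0.352% for control. Thinned to 1000 counts, Atoh1 shares in goblet cells were 6.74% and 6.62% for CCl4 and 5.15% and 0.855% for control.

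**Figure D3:**
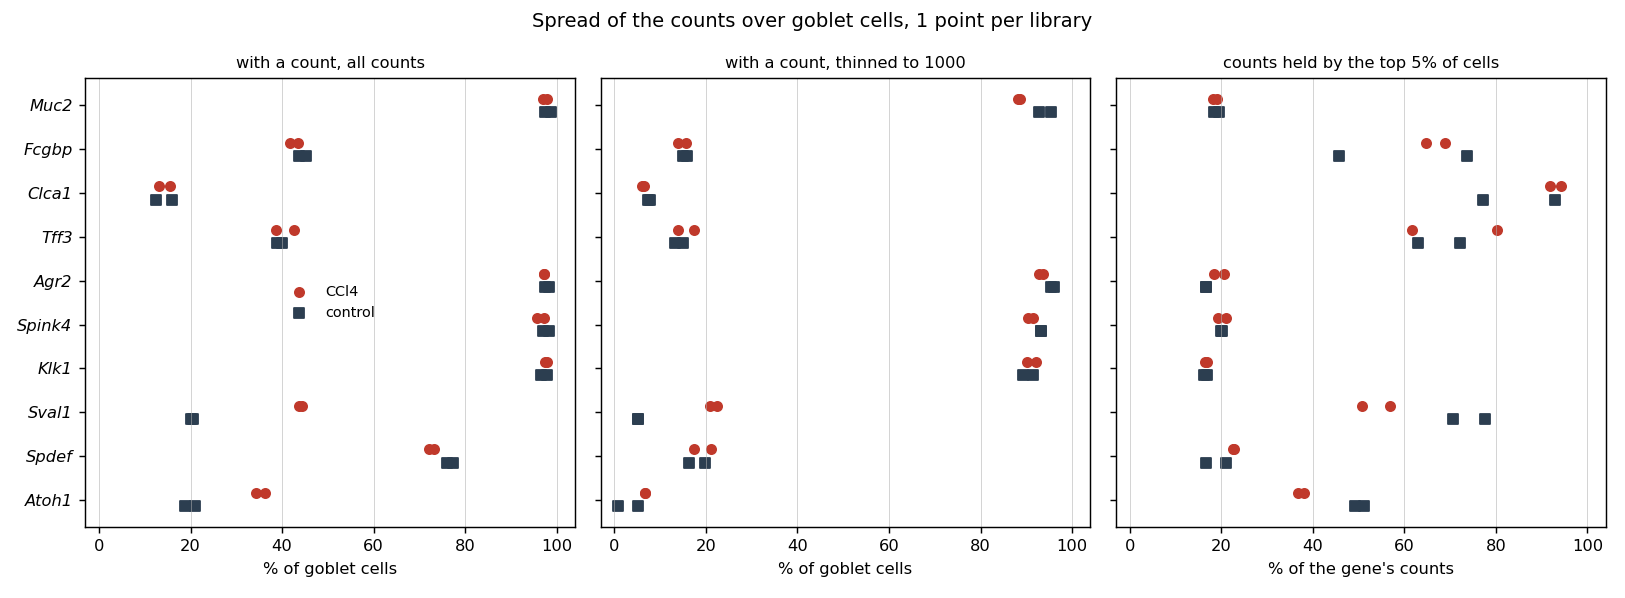
For each gene and library, the share of goblet cells with at least 1 count (left), the same after thinning each cell to 1000 counts (middle), and the share of the gene's counts held by the 5% of goblet cells with the most of it (right), CCl4 as red circles above control as dark squares. Sval1 and Atoh1 lie farther right in CCl4 in the left panel and farther left in the right panel, and Clca1 reaches 94.2% in the right panel.

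Without the 5% of goblet cells with the most of each gene, the log2 ratio was 3.20 for Sval1 and 1.48 for Atoh1, with no test. For Muc2 the same ratio was -0.51, close to that over all cells. The median goblet cell held 61.5 and 51.0 counts of Muc2 in the CCl4 libraries, against 70.0 and 106 in the control libraries. After thinning to 1000 counts, Muc2 was found in 88.6% and 88.1% of goblet cells for CCl4 and in 92.7% and 95.3% for control, and the groups did not overlap. Spdef was found in 72.2% and 73.1% of goblet cells for CCl4 and in 77.3% and 76.1% for control, but after thinning its shares overlapped, at 17.4% and 21.2% for CCl4 and 19.7% and 16.2% for control.

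At a finer resolution the goblet class held a large subcluster led by Mptx1, Retnlb and Plet1 and a second one led by Tff3, Agr2 and Spdef. The first held 58.3% and 56.3% of goblet cells of the CCl4 libraries and 61.8% and 67.5% of those of the control libraries. In it, Muc2 fell (log2 ratio -0.56, SE 0.0695, edgeR adjusted p = 0.00258), Sval1 rose (2.34, SE 0.211, adjusted p = 0.000523) and Atoh1 rose (1.15, SE 0.191, adjusted p = 0.0184), where 0.597% of 11232 genes were called. In the second subcluster, 0.198% of 10117 genes were called and Sval1 rose (3.49, SE 0.259, edgeR adjusted p = 2.92e-06). Muc2 had -0.14 there (SE 0.115, adjusted p = 0.707) and Atoh1 1.12 (SE 0.220, adjusted p = 0.0521), and neither was called. Its Muc2 level was 4838 and 4749 CPM in the CCl4 libraries and 4573 and 6009.8 CPM in the control libraries, which overlapped. Whether the change of Muc2 differs between the subclusters was not tested. These 2 fits were added after the data had been seen.

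Genes whose counts ran most like those of the 10 were found across single goblet cells. Likeness is Pearson's correlation of log-normalized counts over the goblet cells of a library, averaged over the 4 libraries, a description in which cells share depth and library. Among 7123 genes, the closest to Fcgbp was Clca1 (0.62). Agr2 lay closest to Sec61b (0.61), a subunit of the channel through which secreted proteins enter the endoplasmic reticulum, and then to Spink4 (0.53). Klk1 and Spink4 both lay closest to Oit1 (0.61 and 0.58), and Muc2 to Klk1 (0.42), Nupr1 (0.40) and St6galnac6 (0.40), a sialyltransferase. Sval1 lay closest to the chemokine gene Ccl6 (0.43), and then to Scin (0.35) and Mptx1 (0.32). Tff3 lay closest to Hsd11b2 (0.43), an enzyme that inactivates glucocorticoids, and ran against Muc2 (-0.22). For Spdef and Atoh1 no gene reached 0.3, and the 2 correlated with each other at 0.13.

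Genes of other mucins and secreted epithelial products, chosen as a list beside the 10 genes with earlier results of these data known, moved both ways. Whether goblet cells are their main source was not tested. Of 24 such genes tested in goblet cells, 4 were called higher and 4 lower, with a median log2 ratio of 0.22, beside 0.0016 over all genes. Of all 12205 genes tested there, 0.901% were called higher and 0.352% lower. The products called lower were Retnlb, an antibacterial protein (-0.93, edgeR adjusted p = 0.000103), the trefoil peptide Tff2 (-2.96, adjusted p = 0.000488), the chemokine Ccl9 (-0.59, adjusted p = 0.0137) and the angiogenin Ang4 (-1.90, adjusted p = 0.0366). Ang4 had 66.6 and 102.9 CPM in the CCl4 libraries and 111 and 516 CPM in the control libraries, so that control library 2 stood apart. Those called higher were the secreted lectin Reg4 (1.49, adjusted p = 6.1e-05), the membrane mucin Muc3 (1.63, adjusted p = 0.000588), Ccl6 (0.45, adjusted p = 0.00431) and Lypd8, which keeps motile bacteria from the epithelium (1.07, adjusted p = 4.2e-05).

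Of 29 genes of the secretory lineage and its regulators, 3 were called higher and 0 lower by edgeR in goblet cells, with a median log2 ratio of 0.11. The shares over all 12205 genes tested were 0.901% higher and 0.352% lower. The 3 genes called were Hes1, a Notch target that represses Atoh1 (0.57, edgeR adjusted p = 0.0367), the transcription factor Sox4 (0.68, adjusted p = 0.0489) and the corepressor Cbfa2t3 (0.50, adjusted p = 0.0303). At an unadjusted p under 0.05, 8 of this list were higher and 0 lower. Of the 12205 genes tested, 1697 (13.9%) were under that p in either direction, and these were not split by direction. Of 38 genes of folding, granule release and ion or water transport, 4 were called higher and 0 lower by edgeR, beside the same shares over all genes. Their median was -0.05, and at an unadjusted p under 0.05, 6 were higher and 8 lower. The 8 lower were Pdia6, P4hb, Hspa5, Hsp90b1, Tmed3, Sec61b, Stx3 and Rab27a, with log2 ratios between -0.42 and -0.18. Those called were Nlrp6, an inflammasome sensor linked to goblet secretion in mice (1.71, adjusted p = 0.00389), the ion channel Best2 (2.02, adjusted p = 0.0320), the water channel Aqp4 (1.74, adjusted p = 0.00245) and Rep15, an effector of the small GTPase Rab15 (1.28, adjusted p = 2.5e-05).

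In the other epithelial cells, 9 of the 10 genes were called higher in CCl4, where 2.56% of 16774 genes were called and 1.35% were called higher. This sum held 9595 cells: colonocytes, the absorptive cells of the surface, crypt and cycling cells, enteroendocrine cells, and 5309 cells of low depth with shared epithelial markers that took no single name and are called undivided. Muc2 had 219 and 184 CPM in the CCl4 libraries, against 70.8 and 77.6 CPM in the control libraries (log2 ratio 1.44, SE 0.101, edgeR adjusted p = 1.47e-05). Sval1 had 6.96 and 8.33 CPM in the CCl4 libraries, against 0.957 and 1.80 CPM in the control libraries (2.46, SE 0.304, adjusted p = 0.00136). Both genes lay far under their level in goblet cells, and their groups did not overlap. Clca1 (2.11), Atoh1 (1.72), Spdef (1.67), Fcgbp (1.38), Spink4 (1.15), Agr2 (1.11) and Klk1 (0.46) were also called higher, with edgeR adjusted p-values between 0.000219 and 0.0402. Tff3 was not called (0.69, SE 0.194, adjusted p = 0.0948). With stricter cells, Muc2, Agr2 and Spdef alone were called, and DESeq2 called 5 of the 10. Without CCl4 library 1, Atoh1 (1.70, edgeR adjusted p = 0.0779) and Klk1 (0.42, adjusted p = 0.0524) were not called, nor was Atoh1 with the 10 genes kept in the clustering (1.17, adjusted p = 0.205). Over all genes, DESeq2 called 203 higher and 274 lower, against 226 and 204 with edgeR. With the 10 genes kept in the clustering, 183 of the 5309 undivided cells were called goblet.

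The classes within this sum differed in what they carried. Colonocytes had 375 and 377 CPM of Klk1 in the CCl4 libraries and 326 and 289 CPM in the control libraries. Subtracting the level in non-epithelial cells of the same library left 315 and 335 CPM of Klk1 in the CCl4 libraries and 306 and 278 CPM in the control libraries. For Muc2 the same subtraction left -56.0 and -47.5 CPM in colonocytes of the CCl4 libraries and -7.05 and -14.4 CPM in those of the control libraries. Per count, Klk1 in colonocytes thus stood above the level of non-epithelial cells and Muc2 below it. Per cell, the order for Muc2 was the other way round. At least 1 count of Muc2 was found in 38.1% and 33.6% of colonocytes, against 32.7% and 28.04% of non-epithelial cells, in the CCl4 libraries, and in 12.8% and 16.5% against 9.33% and 11.2% in the control libraries. Colonocytes were the deeper cells, with medians of 11499.5 and 9823 counts in the CCl4 libraries and 9099.5 and 10355 in the control libraries, against 4086 and 3708 and against 3621 and 3947.5 in non-epithelial cells. Thinned to 1000 counts, the shares were 7.02% and 7.001% of colonocytes against 11.7% and 10.8% of non-epithelial cells for CCl4, and 1.31% and 2.87% against 3.12% and 3.99% for control. In colonocytes alone, Muc2, Fcgbp, Clca1, Tff3 and Agr2 were called higher (5 genes, where 1.2% of 13172 genes were called and 0.471% were called higher), and in crypt and cycling cells Muc2 and Agr2 (2 genes, where 0.107% of 10309 were called and 0.0485% were called higher). After the same subtraction, Fcgbp was below 0 in colonocytes of all 4 libraries, between -1.67 and -0.475 CPM. Muc2 in crypt and cycling cells then had 35.2 and 30.2 CPM in the CCl4 libraries and 26.5 and 30.8 CPM in the control libraries, which overlapped (log2 ratio 0.19, with no test). In the whole sum, the subtraction left 104.006 and 78.28 CPM of Muc2 for CCl4 and 34.79 and 47.31 CPM for control. This was a log2 ratio of 1.15, with no test. Over the 10 genes such ratios ran from 0.34 (Klk1) to 3.37 (Clca1, below 0 in control library 2). For Tff3 (0.67) the groups overlapped. In undivided cells, 275.4 and 276.03 CPM of Muc2 were left for CCl4 and 93.84 and 125.4 CPM for control, while Tff3 had -0.60 after subtraction. Undivided cells had 7 calls, where 0.775% of 14710 genes were called and 0.347% were called higher, and Tff3 had -0.31 there, not called. With the undivided cells left out of the sum, all 10 were called higher, where 6.24% of 14368 genes were called and 3.06% were called higher.

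Atoh1 in crypt and cycling cells, where this factor acts on progenitors, had 9.19 and 8.92 CPM in the CCl4 libraries and 0 counts in both control libraries. The CCl4 sums of these cells held 5062619 and 3429472 counts from 431 and 332 cells, and the control sums 760348 and 674684 counts from 88 and 77 cells. A count of 0 allows up to 3 counts, a limit of 3.95 and 4.45 CPM in the control libraries for counting error only. Both CCl4 values lay above this limit, but they were scaled and the limit was taken on unscaled totals. The gene was not called there (edgeR adjusted p = 0.193). In the same cells Fcgbp had 22.6 and 143 CPM, Clca1 2.995 and 48.6 CPM and Tff3 85.1 and 346 CPM in the CCl4 libraries, so that CCl4 library 2 stood apart for all 3. With doublets kept, no cluster took the crypt and cycling name (0 cells in every library), so its values could not be recomputed there.

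**Figure D4:**
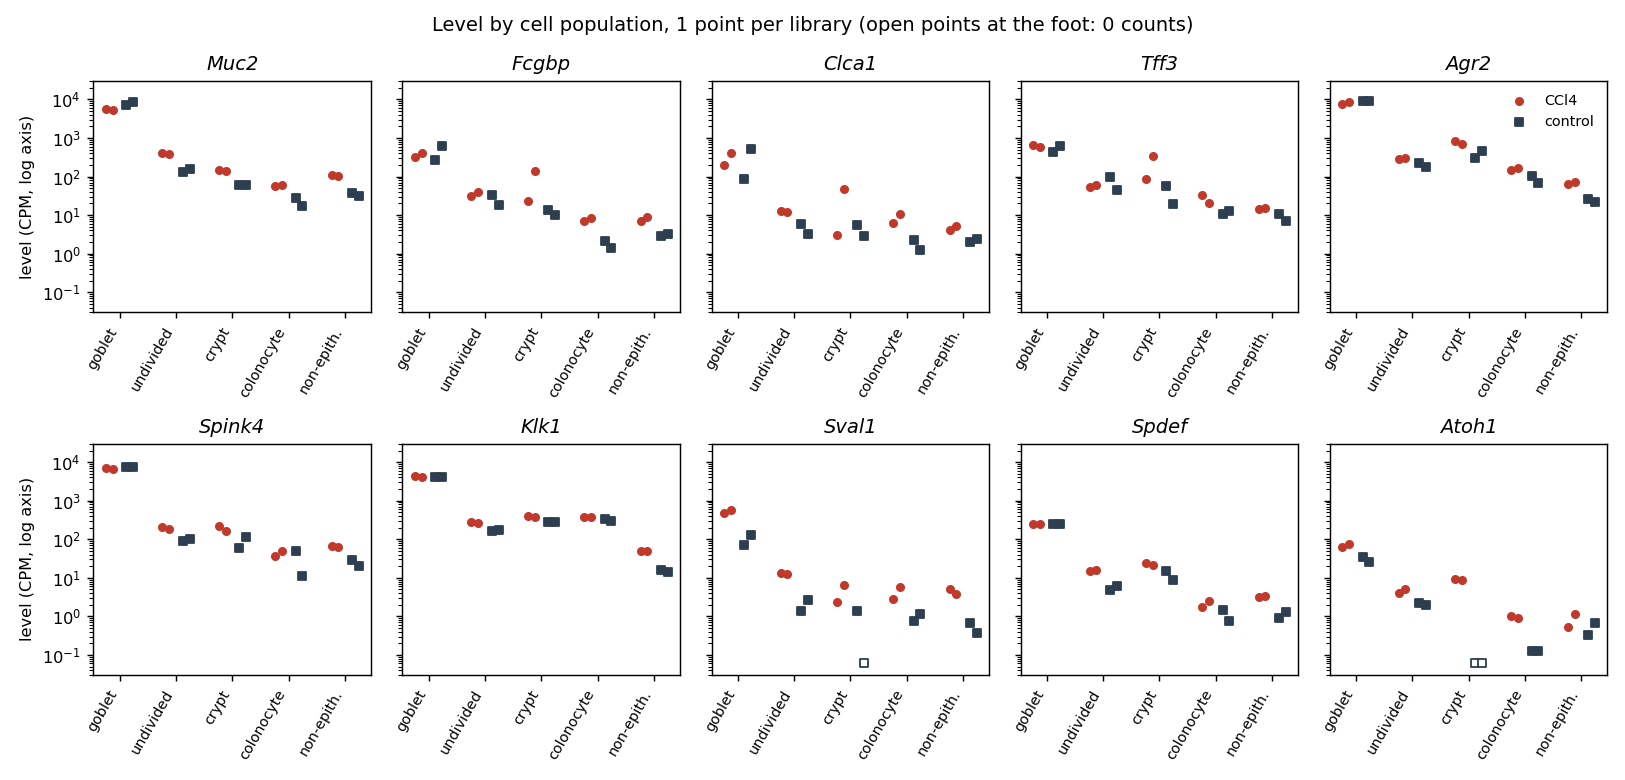
Level of each gene in CPM on a log axis in goblet, undivided epithelial, crypt and cycling, colonocyte and non-epithelial cells, with 2 CCl4 libraries (red circles) left of 2 control libraries (dark squares), scaled within each population, and 0 counts drawn as open points at the foot. Among these 5 populations every gene is highest in goblet cells in each library, and Klk1 stays between 289 and 377 CPM in colonocytes.

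Cells that are not epithelial carried the same transcripts at low levels, and more of them in CCl4. These 21792 cells of 12 classes, among them fibroblasts, T cells and macrophages, were used as the background level of goblet transcripts. What part of that level was free RNA was not tested. Muc2 had 109 and 102.97 CPM in the CCl4 libraries, against 36.7 and 32.2 CPM in the control libraries (log2 ratio 1.62, SE 0.0863, edgeR adjusted p = 6.61e-06). Klk1 had 50.7 and 48.3 CPM in the CCl4 libraries, against 15.8 and 14.5 CPM in the control libraries (1.71, SE 0.0859, adjusted p = 5.22e-06). Of the 10 genes, 8 were called higher, where 4.17% of 18937 genes were called and 2.27% were called higher. Sval1 had the largest ratio (3.10, SE 0.361, adjusted p = 0.00118), at 5.03 and 3.89 CPM in the CCl4 libraries and 0.675 and 0.367 CPM in the control libraries. Agr2 (1.54), Spdef (1.58), Fcgbp (1.40), Spink4 (1.37) and Clca1 (1.11) were called as well, and Tff3 (0.75, adjusted p = 0.0618) and Atoh1 (0.71, adjusted p = 0.675) were not. Clca1 (0.93) and Spdef (1.52) were no longer called without CCl4 library 2, nor (0.98 and 1.36) without control library 1. Raw library totals in place of scaled ones moved the ratios up by 0.14 in these cells.

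Single non-epithelial classes were compared as well, with no test. In 11 of 11 classes with cells in all libraries, both CCl4 libraries lay above both control libraries for Muc2, with 45.6 to 239 CPM in CCl4 and 12.2 to 92.2 CPM in control. The same held in 11 classes for Spink4, Klk1 and Sval1, in 10 for Agr2, 9 for Spdef, 8 for Fcgbp, 7 for Tff3, 6 for Clca1 and 1 for Atoh1. Relative to goblet cells, the level of Muc2 in non-epithelial cells was 1.98% and 2.09% of the goblet level in the CCl4 libraries and 0.470% and 0.363% in the control libraries. For Agr2 it was 0.873% and 0.923% in the CCl4 libraries and 0.260% and 0.233% in the control libraries. Of all counts of the 10 genes in non-epithelial cells, Muc2 made up 33.4% and 31.8% in the CCl4 libraries and 29.3% and 31.0% in the control libraries. In goblet cells the share of Muc2 was 21.6% and 19.7% in the CCl4 libraries and 24.9% and 27.5% in the control libraries. The mixture in non-epithelial cells thus held more Muc2 relative to the other 9 genes than the goblet cells of the same library did. The CCl4 libraries also held more goblet cells, as given above, and the part of that in these levels was not tested.

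**Figure D5:**
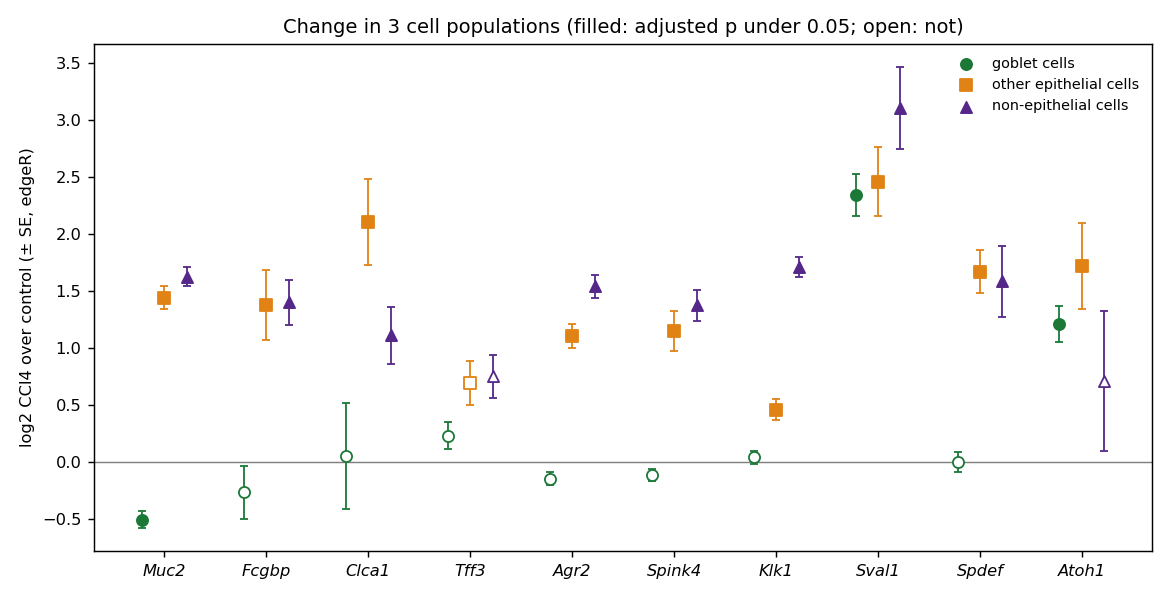
Log2 ratio of CCl4 over control (± SE, edgeR) of each gene in goblet cells (green circles), other epithelial cells (orange squares) and non-epithelial cells (purple triangles), filled where the adjusted p is under 0.05. The goblet value lies below both others for every gene but Atoh1, and the 3 values of Sval1 all lie above 2. For Sval1 and Tff3 these differences did not pass the tests given below.

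The change in goblet cells was set against that in the other cells with an interaction term, with the library as a block. Against other epithelial cells, 7 of the 10 genes had a lower change in goblet cells, where 3.32% of 16195 genes were called and 0.889% were lower. Muc2 differed by -1.87 (SE 0.0652, edgeR adjusted p = 7.79e-19), the smallest p of those genes. Agr2 and Spink4 differed by -1.18 each, Spdef by -1.60, Fcgbp by -1.42, Clca1 by -1.84 and Klk1 by -0.35. Over all genes, 394 were higher and 144 lower in this comparison, or 334 and 251 with RLE in place of TMM factors. Fcgbp was no longer called with stricter cells (-1.96, edgeR adjusted p = 0.151) or without control library 2 (-0.56, adjusted p = 0.154). Clca1 was no longer called with stricter cells (-2.28), with the 10 genes kept in the clustering (-1.15) or without control library 2 (0.07). Against non-epithelial cells, 7 genes differed too, where 3.63% of 18279 genes were called and 1.48% were lower, with Muc2 at -2.02 (SE 0.0996, edgeR adjusted p = 2.78e-24). Over all genes, 393 were higher and 271 lower here, or 165 and 449 with RLE factors, so that the main direction over all genes turned with the scaling. RLE factors moved the differences of the 10 genes by a median of -0.14 and called 8 of them lower, the 7 and Tff3 (-0.55, adjusted p = 0.00976). Clca1 was no longer called here with the 10 genes kept in the clustering (-0.84), without CCl4 library 1 (-0.52) or without control library 2 (0.61). Sval1 did not pass either test (-0.05, SE 0.198, adjusted p = 0.953, and -0.68, SE 0.304, adjusted p = 0.272), nor did Atoh1 (-0.42 and 0.67) or Tff3 (-0.36 and -0.41).

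Of all counts of a gene in the cells used, most lay in goblet cells. For Muc2 this was 87.3% and 85.8% in the CCl4 libraries and 92.4% and 93.2% in the control libraries, and for Sval1 93.6% and 93.1% in the CCl4 libraries and 88.7% and 92.5% in the control libraries. For Klk1 it was 80.7% and 78.2% in the CCl4 libraries and 76.8% and 79.3% in the control libraries. The CCl4 libraries thus held a smaller part of their Muc2 in goblet cells than the control libraries, while those of Klk1 overlapped.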

How the data were processed

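The deposited files were raw counts of reads or molecules per gene and cell, written with PISA v0.12b-15-gb8ca969 per the file headers, on GRCm38 per the submitters' processing notes. The aligner and the use of molecular identifiers and strand are not given in the sources used here. A barcode was used as a cell if it had 200 genes or more and no more than 25% of its counts from mitochondrial genes, and then 6% of each library was dropped by doublet score. The cells were clustered with scanpy 1.11.5 and leidenalg 0.10.2 (2000 variable genes, 30 components, 15 neighbours, resolution 1) and classes were named from 23 marker sets. Details of the naming rule were chosen after the data had been seen. Counts were summed per class and library, since cells are not replicates, and tested with edgeR 4.0.16 in R 4.3.3 (quasi-likelihood test, TMM factors, filter on low counts, Benjamini-Hochberg adjustment over all genes tested, two-sided). CPM levels were scaled within each class. Alternatives included DESeq2 1.42.0, stricter cells (500 genes or more, no more than 10% mitochondrial), doublets kept, resolution 2, each library left out, and the library number as a block. The fits were tested on simulated data. Of the other listed genes, every one past the threshold in goblet cells is named, and likeness was given where the mean correlation reached 0.3. Intervals and limits cover counting error only. The 10 genes and the lists were chosen with earlier results of these data known. Of the gene symbols, 29378 of 29897 were found in GENCODE M21, whose coordinates are given. Cell names were shared between libraries for 11049 of 16214 names, but no profile was (0 cells).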

Additional observations from a re-analysis of the deposited data

Results flagged for a closer look

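A difference in the change between goblet cells and other cells of the same libraries was found for 7 of the 10 genes in both comparisons, by the interaction term in edgeR with the library as a block. Goblet cells had the lower CCl4 over control ratio each time. Over all genes, 3.32% of 16195 were called against other epithelial cells, with 0.889% lower. The shares against non-epithelial cells were 3.63% of 18279 called and 1.48% lower. There 393 of all genes were higher and 271 lower, or 165 and 449 with RLE factors. Against other epithelial cells, the log2 difference was -1.87 for Muc2, -1.42 for Fcgbp, -1.84 for Clca1, -1.18 for Agr2, -1.18 for Spink4, -0.35 for Klk1 and -1.60 for Spdef, with adjusted p-values between 7.79e-19 and 0.00281. Against non-epithelial cells, it was -2.02 for Muc2, -1.52 for Fcgbp, -0.92 for Clca1, -1.58 for Agr2, -1.39 for Spink4, -1.56 for Klk1 and -1.46 for Spdef, with adjusted p-values between 2.78e-24 and 0.0282. Against other epithelial cells, Fcgbp was no longer called with stricter cells (-1.96) or without control library 2 (-0.56), and Clca1 with stricter cells (-2.28), with the 10 genes kept in the clustering (-1.15) or without control library 2 (0.07). Against non-epithelial cells, Clca1 was no longer called with the 10 genes kept (-0.84), without CCl4 library 1 (-0.52) or without control library 2 (0.61). Both comparisons share the goblet sums, so they are not independent. Goblet cells made up 7.44% and 6.95% of cells in the CCl4 libraries and 2.88% and 2.84% in the control libraries, and the part of that share in these differences was not tested.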

How the results depend on the processing

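Of 79 counts and shares of the 10 genes recomputed under an alternative, 69 stayed within 1.5 times the reported count or within the spread between libraries. Of 78 counts over all genes, 30 moved by more than 1.5 times. Of the values of single genes, 674 were counted as the same. Among these, values with a test kept their direction and side of the threshold. Values with no test lay within the SE or the spread between libraries, and their sign was not required to hold. In fits, 46 were no longer called, 34 became called and 38 changed sign, and 23 values with no test moved. The cause was not tested for any of them. In goblet cells, 4 to 6 of the 10 genes were called per count with 1 library left out, against 3 with all, and 1 in the Tff3-led subcluster. Per cell, 0 to 3 were called with 1 library left out. Without CCl4 library 1 edgeR called 0 of all genes per cell, with 1012 at an unadjusted p under 0.05. In other epithelial cells, 9 calls became 5 with DESeq2, 3 with stricter cells, 5 in colonocytes and 2 in crypt and cycling cells. Over all genes, 430 calls became 477, 102, 158 and 11 in the same order.

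Per count in goblet cells, the log2 ratio of Spdef changed sign with no filter (0.033), stricter cells (0.069), the 10 genes kept in the clustering (0.031), resolution 2 (0.004) and in the Mptx1-led subcluster (0.069), and ran over -0.024 to 0.015 with 1 library left out. Clca1 had -0.16 with doublets kept and -0.72 to 1.78 with 1 library left out, Fcgbp 0.18 in the Tff3-led subcluster and -0.75 to 0.45, and Klk1 -0.0094 to 0.095. Per cell, Clca1 had 0.33 with stricter cells, 0.061 with the 10 genes kept and -0.85 to 1.75 with 1 library left out, and Klk1 0.0088 with doublets kept and -0.16 to 0.10 with 1 library left out. Also per cell and with 1 library left out, Tff3 ran over -0.092 to 0.48, Spdef over -0.14 to 0.0044 and Fcgbp over -0.87 to 0.44. Tff3 had -0.31 in undivided cells alone. The difference between goblet and other epithelial cells changed sign for Sval1 (0.082 with stricter cells, 0.59 with the 10 genes kept) and Atoh1 (0.15 with the 10 genes kept, -1.35 to 0.19 with 1 library left out), and ran over -3.26 to 0.071 for Clca1 and -0.95 to 0.091 for Tff3. That between goblet and non-epithelial cells changed sign for Atoh1 (-0.014 with stricter cells, -0.50 with doublets kept, -0.15 to 1.30 with 1 library left out), and ran over -1.62 to 0.61 for Clca1, -0.97 to 0.16 for Tff3 and -1.52 to 0.25 for Sval1. The highest values of these ranges for Clca1, Tff3 and Sval1 in the differences, and the lowest for Atoh1 against non-epithelial cells, came without control library 2.

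With the library number as a replicate block, 4 of the 10 genes were called per count in goblet cells, with Clca1 at 0.38, Muc2 at -0.50, Sval1 at 2.39 and Atoh1 at 1.21. Per cell under the block, Muc2 had -0.57 and was not called, and Clca1 had 0.35. The block called 336 of all genes per count, against 153 without it, and 69 per cell, against 129. The labels do not say that the numbers pair the libraries, and the deviations of same-numbered libraries correlated at 0.0708 over 12205 genes.

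Muc2 per cell was also not called with stricter cells (-0.54) or doublets kept (-0.54). Over all genes in goblet cells, 349 were called with no filter, 75 with stricter cells, 91 with doublets kept and 114 to 689 with 1 library left out. Raw totals gave 80 higher and 56 lower in goblet cells, against 110 and 43, and DESeq2 gave 71 and 69. In non-epithelial cells, raw totals gave 1333 higher and 226 lower, against 430 and 359, and no filter gave 1435 calls. In other epithelial cells, no filter gave 973 calls, stricter cells 102 and resolution 2 gave 710, against 430, with 11 to 158 in single classes, 896 without undivided cells and 332 to 1088 with 1 library left out. Depth limits Atoh1 most, which rests on 118 and 90 counts in control goblet cells.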

Other observations

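Enteroendocrine cells, the hormone cells of the same secretory lineage, were too few to be fitted (64 and 56 cells in the CCl4 libraries, 42 and 32 in the control libraries). Muc2 had 1938 and 807 CPM there in the CCl4 libraries, against 423 and 587 CPM in the control libraries, and Klk1 had 1614 and 911 CPM against 488 and 231 CPM. Atoh1 had 15.7 and 16.1 CPM in the CCl4 libraries and 0 and 37.9 CPM in the control libraries, which overlapped.

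A cluster of 949 cells that took no name held 116 and 558 cells of the CCl4 libraries and 11 and 264 cells of the control libraries. It was 1 of 3 unnamed clusters. Its median cell held 1637 and 1989 counts in the CCl4 libraries and 2364 and 1613 in the control libraries. Its Muc2 level was 260.4 and 371 CPM in the CCl4 libraries and 0 and 209.8 CPM in the control libraries, where the 0 comes from 11 cells. Clca1 had 32.1 and 223 CPM there in the CCl4 libraries, against 0 and 9.04 CPM in the control libraries.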
